A study of Mus musculus with 67 samples.

Results

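Monocytes that had been transferred into mice and recovered from the spleen were compared with those recovered from the blood. The comparison used 12 of the 67 libraries of a mouse monocyte series, and of the 26 in the table of its transfer experiment. They were taken by their labels: 6 graft libraries from spleen and 6 from blood, with 2 from each tissue at 24, 36 and 48 h after transfer. All came from C57BL/6 mice labelled 8 weeks old. The RNA of sorted cells was captured on oligo-dT beads and sequenced. Blood grafts were sorted by flow cytometry after ficoll, a density gradient that removes most red cells and granulocytes. Spleen grafts were sorted after ACK, an ammonium chloride buffer that bursts red cells. Each tissue had its own preparation, so tissue and preparation cannot be told apart in any difference given here. The cells before transfer were marrow Ly6C+ monocytes, enriched with CD115-biotin beads from crushed bone marrow without ACK, with 2 libraries in the table. A further 12 libraries held host monocytes of the same tissues and preparations, sorted as Ly6C+, Ly6Cint and Ly6C- host cells at 24 h, with 2 of each in each tissue. How grafted cells were told from host cells, and whether animals were pooled, is not given in the sources used here. The labels do not say that libraries with different letters (AC and B in blood, B and C in spleen) came from separate animals, and a p-value here may then reflect technical spread alone.

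Ly6C+ monocytes are made in the marrow, circulate in the blood and lie in a reserve in the splenic red pulp, the part of the spleen that filters blood and clears old red cells. In blood many of them turn into Ly6C- monocytes, which patrol the vessel wall and depend on the transcription factors Nr4a1 and C/EBPbeta. Immediate early genes, such as Fos and Jun, are switched on within minutes of a stimulus without new protein synthesis, and their short-lived transcripts fade soon after it ends. Red-pulp macrophages take up red cells and recycle heme iron under the transcription factor Spic.

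The deposited values of the 12 graft libraries correspond to 547942 to 1184760 reads on the listed genes, and between 7734 and 10970 genes were above 0. Levels are given as reads per 1000000 reads on those genes (RPM), and differences as log2 of RPM plus 1, spleen minus blood, with the standard error of limma. Between the 2 libraries of a tissue and time Pearson's r across genes was 0.772 to 0.902. Both tissues held the monocyte transcripts looked for: Csf1r, the receptor for the growth factor M-CSF, lay at 1540 to 2110 RPM in blood and 1570 to 2270 RPM in spleen, and Lyz2, the macrophage lysozyme, at 10900 to 14600 and 8330 to 15900 RPM. Spleen 36 h replicate C stood apart from the other spleen grafts in markers of other cells. Its markers of red-pulp and tissue macrophages summed to 6310 RPM, against 553 to 2110 RPM in the other 5, and its platelet markers to 1340 RPM against 37.3 to 128 RPM. Of that platelet sum the marker Pf4 alone gave 1060 RPM. Both blood libraries at 24 h stood apart from later blood libraries in genes given below.

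Over both tissues 10929 genes reached 2 RPM in at least 2 of the 12 libraries and were tested with time as a block. Of these, 16 passed an adjusted p of 0.05 (0.146% of genes tested), 3 higher in spleen (0.0274%) and 13 lower (0.119%). At an unadjusted p under 0.05 there were 973 genes (8.9%), 712 higher in spleen (6.51%) and 261 lower (2.39%), and the unadjusted counts of gene groups below are best read against these shares. In 25 genes every spleen graft was above every blood graft (0.229%), and in 19 every one was below (0.174%). The globin genes Hba-a1 and Hba-a2, and Hbb-b1 and Hbb-bs, had equal values in 11 of 12 libraries and differed by at most 1.31 RPM in the other, so the 16 genes carry 14 separate measurements, 11 of them lower in spleen. Those 11 were the immediate early genes Fos, Jun, Junb, Dusp1, Zfp36 and Ier2, the heat shock gene Hspa1b, Sgk1, Tnfrsf1a and the 2 globin pairs. The 3 higher were Cd8b1, Fcna and Ly6d, each a marker of another cell type. The median difference of all genes tested was 0.17, with 6761 genes above 0 and 4168 below. It was 0.05 after quantile scaling, so small differences are best read against 0.17. Without spleen 36 h replicate C, 13 genes passed, 2 higher and 11 lower, and without the 4 libraries of 36 h 7 passed, 0 higher. The test voom on the recovered reads called 41 genes (0.375%), 25 higher (0.229%) and 16 lower (0.146%), and 14 of the 16 were among them, all but Hbb-b1 and Hbb-bs.

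**Figure D1:**
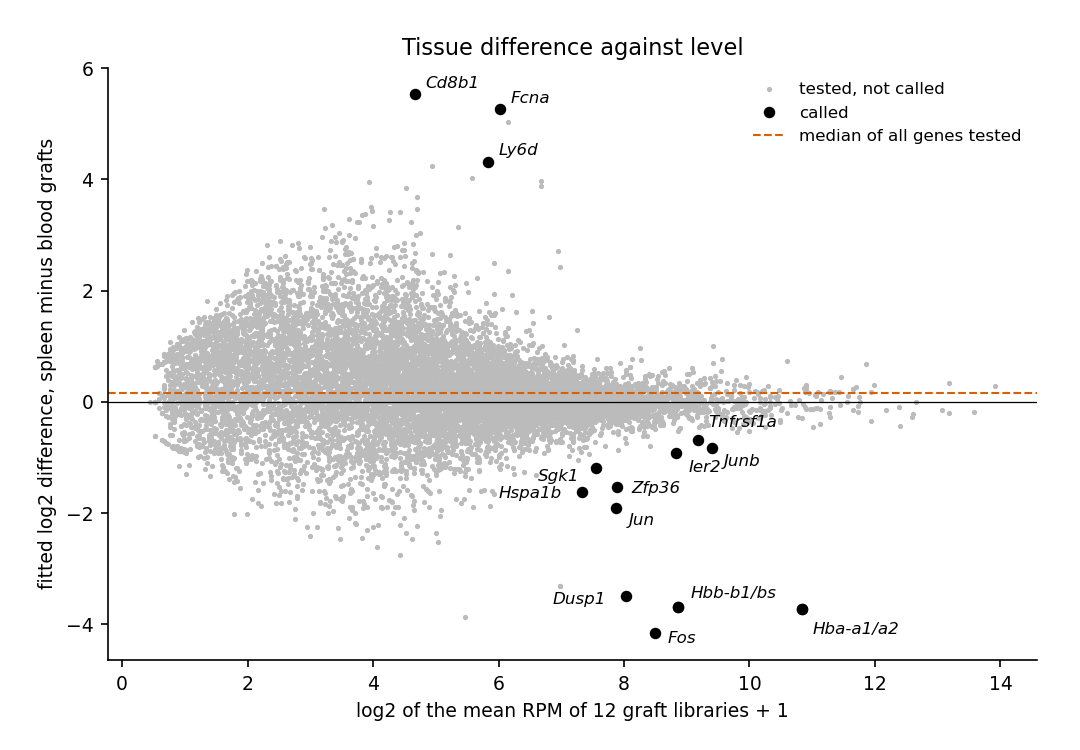
Fitted log2 difference (spleen minus blood grafts, vertical axis) of each of the 10929 genes tested against log2 of its mean RPM over 12 graft libraries plus 1 (horizontal axis). Black points are the genes called, and the dashed line is the median of all genes at 0.17. Fos is the lowest called point at -4.16 and Cd8b1 the highest at 5.53.

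Of the 13 genes called lower in spleen grafts 6 were immediate early genes. Of 30 genes listed, 26 were tested, 6 were lower and 0 higher (limma; 15 lower and 0 higher at an unadjusted p under 0.05; 7 lower and 0 higher by voom on recovered reads). The median difference of the 26 was -0.72, which is -0.89 relative to all genes, and 22 lay below 0. Their summed level was 7290, 8050 and 8550 RPM (lowest, median and highest) in blood and 3170, 4590 and 5730 RPM in spleen. Every blood graft was above every spleen graft in this sum, and in 7 of the 26 genes taken singly. At 24, 36 and 48 h the list median was -0.80, -0.72 and -0.77. Before transfer, the 2 marrow libraries summed to 2270 and 2210 RPM.

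Fos encodes a subunit of the AP-1 transcription factor. Its level was 425, 649 and 999 RPM in blood and 8.76, 41.8 and 117 RPM in spleen. The highest spleen library, 36 h replicate C, had less than the lowest blood library, 48 h replicate AC. Fos fell by 4.16 ± 0.29 on the log2 scale (95% confidence interval -4.76 to -3.56, adjusted p = 1.57e-08), and its mean was 671 ± 217 (SD, n = 6) RPM in blood and 48.6 ± 39.9 RPM in spleen, a 13.8-fold difference. It was the 1 gene called at every single time, with differences of -4.14 at 24 h, -3.10 at 36 h and -5.24 at 48 h. Marrow monocytes before transfer had 89.4 and 96 RPM of Fos, within the range of the spleen grafts and below that of the blood grafts.

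Jun, the main partner of Fos in AP-1, lay at 284, 333 and 617 RPM in blood and 51.3, 108 and 120 RPM in spleen. The groups did not overlap, and blood 24 h replicate B was the highest library. Jun fell by 1.92 ± 0.24 (adjusted p = 0.000232). Junb, another AP-1 subunit, had 689, 857 and 1050 RPM in blood and 430, 479 and 535 RPM in spleen, and fell by 0.82 ± 0.13 (adjusted p = 0.00248) with no overlap between the groups. Both calls held whichever of the 12 libraries was left out.

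Dusp1, a phosphatase that switches off MAP kinases, had 301, 440 and 599 RPM in blood and 0, 79.6 and 158 RPM in spleen. No spleen graft reached the lowest blood graft. Spleen 24 h replicate C held 0 reads of Dusp1, which allows up to 3.13 RPM at its depth, while its immediate neighbour in the group had 34.6 RPM. Such limits cover counting error only. Dusp1 fell by 3.49 ± 0.63 (adjusted p = 0.0126). Without spleen 24 h replicate C the difference was -2.54 (adjusted p = 1.53e-05), and without spleen 36 h replicate B the call was lost at an adjusted p of 0.0501.

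Zfp36, which encodes tristetraprolin, a protein that speeds the decay of inflammatory mRNAs, had 240, 341 and 476 RPM in blood and 75.4, 121 and 168 RPM in spleen. The groups did not overlap. It fell by 1.53 ± 0.20 (adjusted p = 0.000243). Ier2, a small nuclear protein of the same response, had 429, 601 and 767 RPM in blood and 245, 307 and 418 RPM in spleen, again with no overlap, and fell by 0.92 ± 0.18 (adjusted p = 0.0249). The Ier2 call was lost without any 1 of 7 libraries: blood 24 h B (0.1), 36 h AC (0.112), 48 h AC (0.0599) and 48 h B (0.0958), and spleen 24 h C (0.0839), 36 h C (0.11) and 48 h C (0.0871), adjusted p in brackets.

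Of the 20 tested immediate early genes that were not called, several had low counts or wide spread. Fosb, another AP-1 subunit gene, had 0 to 39.4 RPM in blood and was at 0 in 5 of 6 spleen grafts, with 77.1 RPM in the other, a difference of -2.61 ± 1.07 (adjusted p = 0.515). Klf6 had 620, 688 and 903 RPM in blood and 291, 483 and 584 RPM in spleen, with no overlap, at -0.68 ± 0.16 (adjusted p = 0.147 by limma, 0.0469 by voom). Nr4a1, an immediate early gene that Ly6C- monocytes keep on, had 977, 1140 and 1790 RPM in blood and 759, 1130 and 1390 RPM in spleen, at -0.17 ± 0.14 (adjusted p = 0.734). Egr1 had 0 to 57.8 RPM in blood and 0 to 23.7 RPM in spleen, a level near that of a few reads.

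**Figure D2:**
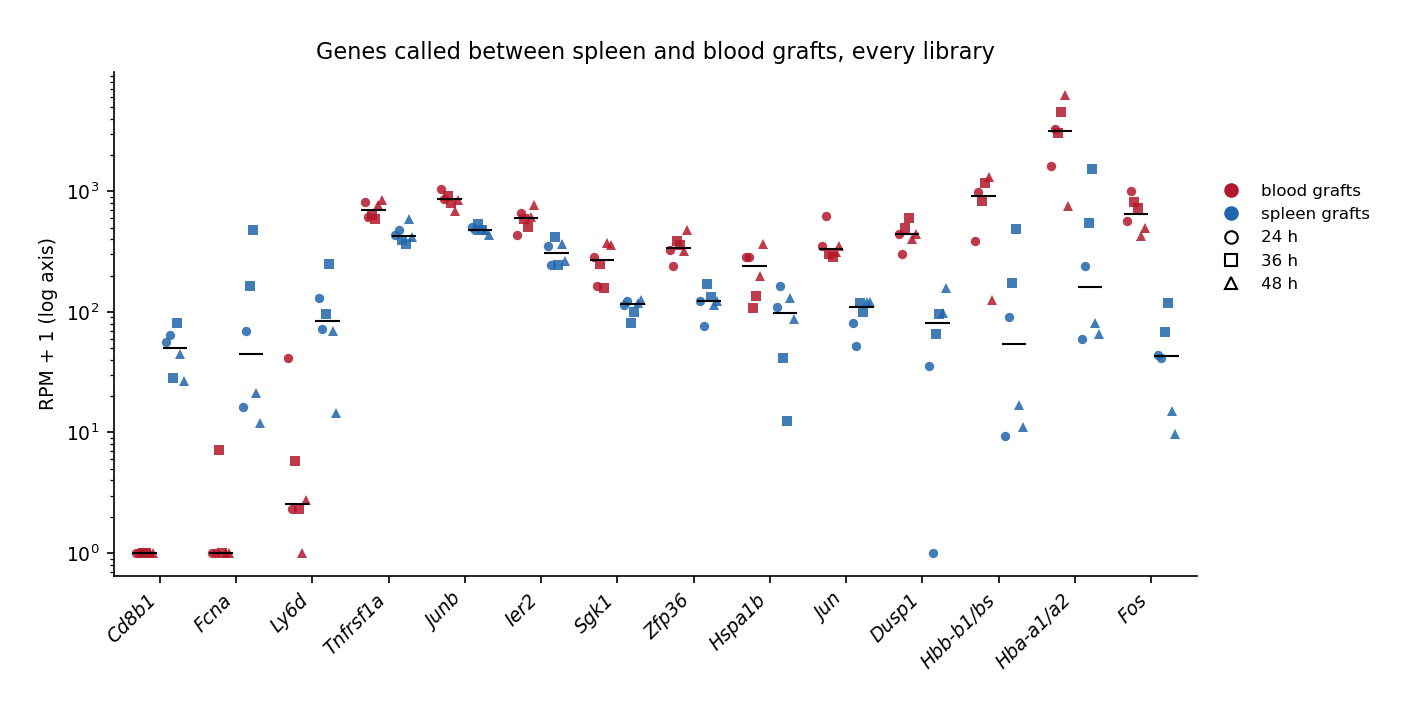
RPM (log axis of RPM plus 1) in each of the 12 graft libraries for the genes called, with genes along the horizontal axis. Red points are blood and blue points spleen grafts, symbols show the time after transfer, bars are group medians, and a globin pair is shown once. Fos runs from 425 to 999 RPM in blood and from 8.76 to 117 RPM in spleen, while Cd8b1 is at 0 in the 6 blood grafts.

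Promoters of the called genes of the gene groups were searched because these genes moved together. RefSeq sequences (GRCm38.p6) were found for 6 of the 7, all but Ier2, and the window ran from 250 bases before to 50 after the start site. The motifs, sought on both strands, were CRE TGACGTCA, AP-1 TGANTCA, NF-kappaB GGGNNTTTC, interferon element GAAANNGAA, heat shock element GAANNTTC, antioxidant element TGACNNNGC and KLF CACCC. The 250 bases before the start are shown for the 2 genes with the largest falls in the immediate early list and for the 2 genes whose windows hold a heat shock element. They are written 5′ to 3′ on the strand of the gene, with a CRE or heat shock element in capitals.
Fos, chr12:85473640-85473889, plus strand: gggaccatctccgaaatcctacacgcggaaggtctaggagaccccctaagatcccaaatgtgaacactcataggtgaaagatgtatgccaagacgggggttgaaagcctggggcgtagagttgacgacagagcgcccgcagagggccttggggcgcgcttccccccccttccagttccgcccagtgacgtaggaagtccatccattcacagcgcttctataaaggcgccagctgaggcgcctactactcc
Dusp1, chr17:26508473-26508722, minus strand: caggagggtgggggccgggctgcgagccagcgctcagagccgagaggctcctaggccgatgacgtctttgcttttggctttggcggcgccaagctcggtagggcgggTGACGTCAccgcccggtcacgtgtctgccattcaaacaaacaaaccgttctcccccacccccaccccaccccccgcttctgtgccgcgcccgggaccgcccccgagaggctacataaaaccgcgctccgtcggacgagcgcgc
Jun, chr4:95052223-95052472, minus strand: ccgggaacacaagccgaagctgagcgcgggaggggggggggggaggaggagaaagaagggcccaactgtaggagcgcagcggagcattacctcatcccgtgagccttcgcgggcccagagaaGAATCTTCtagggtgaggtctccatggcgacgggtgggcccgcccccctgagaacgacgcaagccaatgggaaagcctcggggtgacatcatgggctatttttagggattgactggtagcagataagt
Hspa1b, chr17:34959239-34959488, minus strand: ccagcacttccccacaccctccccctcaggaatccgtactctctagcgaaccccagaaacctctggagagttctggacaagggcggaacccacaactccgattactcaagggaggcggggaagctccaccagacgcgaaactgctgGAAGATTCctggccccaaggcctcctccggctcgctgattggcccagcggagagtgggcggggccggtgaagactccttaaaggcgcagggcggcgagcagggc
The Dusp1 window held 1 CRE, beginning at base -143, 1 antioxidant element and 5 KLF motifs. Of 32851 RefSeq promoters searched in the same way, 1.79% hold a CRE, 12.4% an antioxidant element and 57.5% a KLF motif. Windows of Jun and Hspa1b each held 1 heat shock element, at bases -128 and -104, which 7.86% of promoters hold. KLF motifs numbered 3 in the window of Jun, 2 in Junb and 1 in Hspa1b, and these letters were not found in the windows of Fos and Zfp36. No AP-1, NF-kappaB or interferon motif was found in the 6 windows, against 7.81%, 4.36% and 8.56% of all promoters. Matches describe letters in these windows only.

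Among heat shock and unfolded protein genes 1 of 23 tested (26 listed) was lower and 0 were higher. The median of the 23 was 0.09, and relative to all genes it was -0.08, turning to 0.05 with quantile scaling. The gene called was Hspa1b, an inducible Hsp70 chaperone, with 106, 240 and 364 RPM in blood and 11.4, 97.3 and 162 RPM in spleen. Here the groups overlapped: blood 36 h replicates AC (106 RPM) and B (135 RPM) were below the highest spleen graft, 24 h replicate C. At each of the 3 times both blood grafts were nevertheless above both spleen grafts. Hspa1b fell by 1.61 ± 0.31 (adjusted p = 0.022). The call was lost without blood 36 h AC (adjusted p = 0.11), 36 h B (0.111) or 48 h B (0.0922), or without spleen 24 h B (0.0678) or 48 h C (0.0603). Hspa1a, its near-identical neighbour, with which reads may be shared, had 74.1 to 138 RPM in blood and 15.8 to 96.9 RPM in spleen at -1.29 ± 0.36 (adjusted p = 0.281).

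Sgk1, a kinase induced by glucocorticoids and growth factors, had 156, 267 and 372 RPM in blood and 80.2, 115 and 125 RPM in spleen. Every blood graft was above every spleen graft, and Sgk1 fell by 1.20 ± 0.22 (adjusted p = 0.0126). That call was lost without blood 36 h AC (adjusted p = 0.0981), blood 48 h AC (0.0569) or spleen 36 h B (0.0501). Tnfrsf1a, the main receptor for tumor necrosis factor, had 590, 702 and 851 RPM in blood and 361, 423 and 589 RPM in spleen. The groups did not overlap, but blood 36 h replicate B (590 RPM) and spleen 48 h replicate B (589 RPM) were almost level. Tnfrsf1a fell by 0.68 ± 0.14 (adjusted p = 0.0444), and the call held without blood 24 h B or spleen 48 h B but was lost without each of the other 10 libraries (adjusted p = 0.0737 to 0.202).

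Of the red-cell transcripts the globin genes were lower in spleen grafts. Hba-a1, an alpha-globin gene, had 749, 3170 and 6290 RPM in blood and 58.3, 160 and 1530 RPM in spleen, and fell by 3.73 ± 0.46 (adjusted p = 0.000201). Hbb-b1, a beta-globin gene, had 125, 908 and 1300 RPM in blood and 8.33, 52.8 and 490 RPM in spleen, and fell by 3.69 ± 0.57 (adjusted p = 0.00234). The Hbb-b1 and Hbb-bs calls were lost by voom on recovered reads (-2.79, adjusted p = 0.0562). The groups overlapped for both, because blood 48 h replicate B was the lowest blood graft and spleen 36 h replicate C the highest spleen graft. Globin transcripts belong to red cells and their precursors. Marrow monocytes before transfer had 16.7 and 10.5 RPM of Hba-a1. The red-cell removal step differed between the tissues. Its part in the globin difference was not tested and cannot be told apart from that of the tissue.

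Of 19 erythroid markers listed, 15 were tested, 4 were lower by limma (the 4 globin genes above) and 0 higher, with a median of -1.79. At an unadjusted p under 0.05, 7 were lower and 2 higher, and voom called 3 lower and 0 higher (Hba-a1, Hba-a2 and Alas2). Of the 15, 9 lay below 0 and 6 above, among them Epor, the erythropoietin receptor, at 1.26 ± 0.60 (adjusted p = 0.559), and Tfrc, the transferrin receptor, at 0.47 ± 0.77 (adjusted p = 0.884). The beta-globin genes Hbb-b2 and Hbb-bt had equal values in 12 of 12 libraries, both at -3.31 ± 0.75 (adjusted p = 0.122 by limma). With the 2 pairs above, globin values thus enter the counts of lower genes and the median more than once. Without spleen 36 h replicate C only 13 markers passed the filter, 2 of them above 0. The 4 globin genes called before were still called, and the median of these 13 was -3.77. It is not over the same genes as the -1.79. The list summed to 1960, 8810 and 16500 RPM in blood and 180, 510 and 4670 RPM in spleen. Alas2, the heme synthesis enzyme of red-cell precursors, had 5.26, 56.8 and 192 RPM in blood and 0, 1.97 and 36.8 RPM in spleen, at -3.87 ± 0.92 (adjusted p = 0.147 by limma, 0.0324 by voom). The part of red-cell RNA in the other differences was not tested.

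The 3 genes called higher in spleen grafts mark cells other than monocytes, and in bulk libraries such as these fewer cells of a type and less RNA per cell cannot be told apart. Cd8b1, the beta chain of the CD8 co-receptor of T cells, was at 0 in all 6 blood grafts, 0 of 4388391 reads. In spleen it had 25.9, 49.3 and 79.3 RPM, 245 of 4845417 reads, so that every spleen graft was above every blood graft. Set against the 3 reads that a count of 0 allows over the 6 blood libraries together (0.684 RPM), the pooled spleen level of 50.6 RPM was at least 74-fold higher. The fitted difference was 5.53 ± 0.80 (adjusted p = 0.0011), and the call held whichever library was left out.

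Of 23 markers of T and NK cells listed, 21 were tested, and 1 was called higher (Cd8b1) and 0 lower by limma. At an unadjusted p under 0.05, 12 were higher and 0 lower, and voom called 4 higher: Cd8b1, Cd8a, Cd3d (adjusted p = 0.0363) and Tcf7 (0.045). All 21 lay above 0, with a median of 1.97. Of the 23 listed, 8 were at 0 in all 6 blood grafts, and such a gene, if tested, could not lie below 0. Part of that count and median was therefore fixed in advance. Without spleen 36 h replicate C 19 were tested, 18 lay above 0 and the median was 1.75. The list summed to 3.51, 39.4 and 117 RPM in blood and 102, 255 and 589 RPM in spleen. Cd8a, the other CD8 chain, was at 0 in all 6 blood grafts and had 0, 17.3 and 29.8 RPM in spleen, at 3.47 ± 0.86 (adjusted p = 0.181 by limma, 0.0242 by voom). Cd3e, a chain of the T-cell receptor complex, was at 0 in the 6 blood grafts and in 2 spleen grafts, and its highest level was 12.7 RPM. The part of T-cell RNA in the Cd8b1 difference was not tested.

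Fcna, or ficolin A, is a lectin made by tissue macrophages. It was at 0 in 5 blood grafts and at 6.13 RPM in blood 36 h replicate AC, and had 11, 44 and 480 RPM in spleen. The groups did not overlap, and spleen 36 h replicate C was the highest. Fcna rose by 5.26 ± 0.87 (adjusted p = 0.00486), and the call held whichever library was left out.

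Of 19 red-pulp and tissue macrophage markers listed, 17 were tested, and limma called 1 higher (Fcna) and 0 lower. At an unadjusted p under 0.05, 12 were higher and 0 lower, and voom called 4 higher: Fcna, Vcam1, Slc40a1 and Mrc1, the mannose receptor (adjusted p = 0.0319). All 17 lay above 0 with a median of 2.50, or 16 of 17 with 2.08 without spleen 36 h replicate C. Of the 19 listed, 5 were at 0 in all 6 blood grafts and 1 in all 6 spleen grafts. A gene at 0 in all blood grafts, if tested, could not lie below 0. The list summed to 452, 620 and 673 RPM in blood and 553, 1190 and 6310 RPM in spleen. By time the list median was 3.27 at 24 h, 5.45 at 36 h and 0 at 48 h. Vcam1, the adhesion molecule by which red-pulp macrophages are recognised, had 0 to 1.75 RPM in blood and 0, 94.2 and 444 RPM in spleen, at 5.03 ± 1.13 (adjusted p = 0.115 by limma, 0.0205 by voom). Without spleen 48 h replicate C, where it was at 0, Vcam1 was called at 6.13 (adjusted p = 0.00375). In the other 11 of the 12 fits without 1 library it was not called.

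The complement gene C1qa had 0, 1.31 and 13.6 RPM in blood and 0, 71.6 and 823 RPM in spleen, at 3.98 ± 1.12 (adjusted p = 0.283). It was called without spleen 48 h replicate B (4.92, adjusted p = 0.0449), but not in the other 11 of the 12 fits without 1 library. Slc40a1, the iron exporter ferroportin, was at 0 in 5 blood grafts and had 0, 43.8 and 380 RPM in spleen, at 4.02 ± 1.02 (adjusted p = 0.181 by limma, 0.0217 by voom). Spic had 0, 27.8 and 52.6 RPM in blood and 0, 72.5 and 242 RPM in spleen, at 1.40 ± 0.95 (adjusted p = 0.678). Hmox1, heme oxygenase, had 219, 280 and 380 RPM in blood and 230, 344 and 1020 RPM in spleen, at 0.47 ± 0.25 (adjusted p = 0.603). In Vcam1, C1qa, Slc40a1, Spic and Hmox1 the highest spleen library was 36 h replicate C, and the part of macrophage RNA in these differences was not tested.

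Ly6d, a surface protein of B-lineage and plasmacytoid dendritic cells, had 0, 1.53 and 40.8 RPM in blood and 13.6, 83.1 and 247 RPM in spleen. Blood 24 h replicate AC, at 40.8 RPM, was the 1 blood graft inside the spleen range. Ly6d rose by 4.32 ± 0.78 (adjusted p = 0.0126). The call was lost without spleen 24 h B (adjusted p = 0.0678), 36 h B (0.072), 36 h C (0.125) or 48 h B (0.0536). Of 15 B-cell markers listed, 14 were tested, 0 were called by limma (9 higher and 0 lower at an unadjusted p under 0.05, 1 higher by voom) and all 14 lay above 0, with a median of 2.02. Of the 15 listed, 2 were at 0 in all 6 blood grafts and, if tested, could not lie below 0. The list summed to 134, 289 and 341 RPM in blood and 336, 518 and 1320 RPM in spleen. Ms4a1, a defining B-cell marker, had 0, 2.63 and 20.2 RPM in blood and 0, 23 and 128 RPM in spleen, and was at 0 in 2 blood and 2 spleen grafts. Markers of plasmacytoid dendritic cells and basophils, of which 15 were listed, 6 tested and 1, Ly6d, called, summed to 314, 517 and 746 RPM in blood and 328, 802 and 899 RPM in spleen. In the marrow monocytes before transfer this list summed to 528 and 504 RPM, with its member Bst2 alone at 430 and 389 RPM. The part of B cells, plasmacytoid dendritic cells and basophils in the Ly6d difference was not tested.

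**Figure D3:**
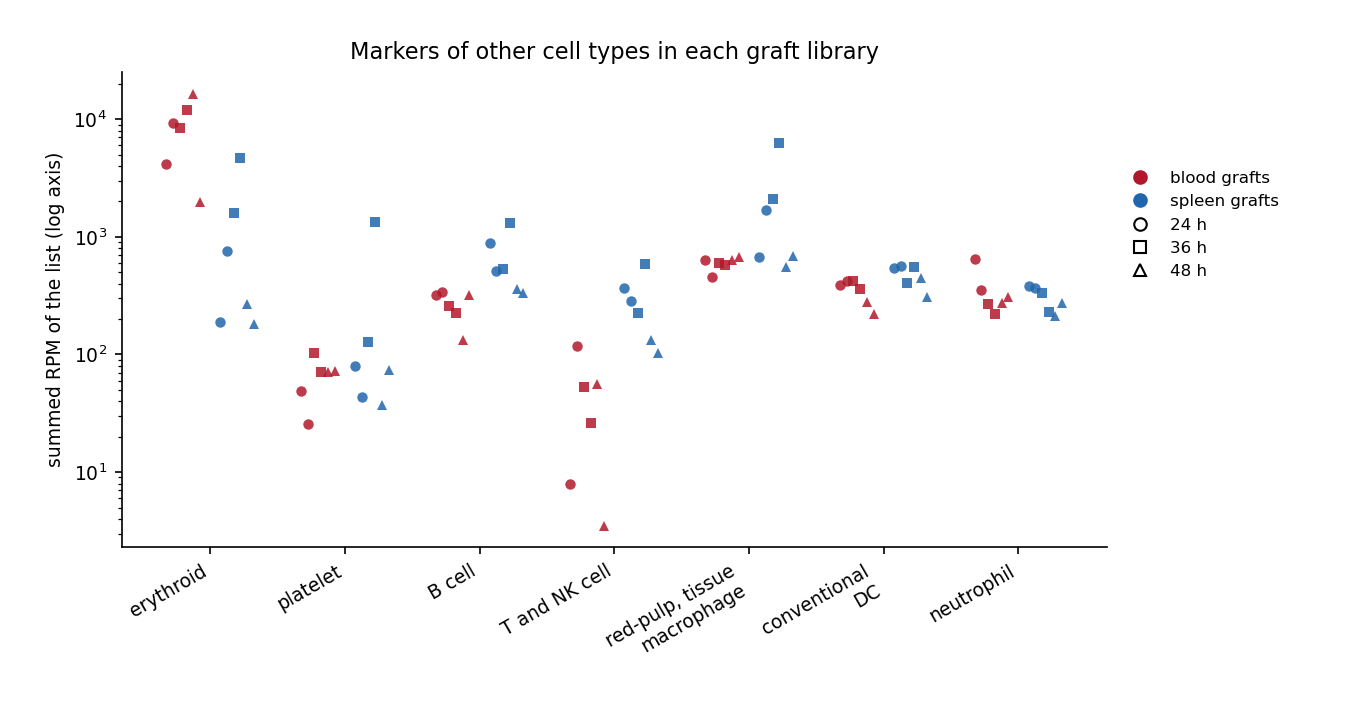
Summed RPM of each marker list (log axis) in the 12 graft libraries, blood against spleen, with 1 point per library. T and NK cell markers sum to 3.51 to 117 RPM in blood and 102 to 589 RPM in spleen, and erythroid markers to 1960 to 16500 and 180 to 4670 RPM.

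No gene of the lists that separate Ly6C+ from Ly6C- monocytes was called between the tissues. Of 22 Ly6C+ genes 0 were called by limma or voom (4 higher and 1 lower at an unadjusted p under 0.05), with a median of 0.38. Of 30 Ly6C- genes 0 were called by either (1 higher and 5 lower unadjusted), with a median of -0.11. Ly6c2, a gene of the sorted antigen, had 33.3, 401 and 781 RPM in blood and 57, 440 and 1120 RPM in spleen, at 0.33 ± 0.24 (95% confidence interval -0.17 to 0.82, adjusted p = 0.7). In both tissues its 48 h libraries were the lowest, at 33.3 and 62.7 RPM in blood and 85.9 and 57 RPM in spleen, against 4440 and 4010 RPM in the marrow cells before transfer. Ccr2, the receptor that brings monocytes out of marrow, was at 0.61 ± 0.22 (adjusted p = 0.432). Cx3cr1, the fractalkine receptor of patrolling monocytes, was at -0.09 ± 0.13 (95% confidence interval -0.37 to 0.19, adjusted p = 0.865), and Cd36, a scavenger receptor of Ly6C- cells, at -0.79 ± 0.33 (adjusted p = 0.517). A p that misses the threshold does not show that these genes were alike.

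Of 39 monocyte transcription factor genes tested (43 listed), 0 were called by limma, 1 was higher and 8 lower at an unadjusted p under 0.05, and Klf2 and Klf6 were lower by voom. The median was -0.12. Cebpb, the gene of C/EBPbeta, had 1770, 2280 and 3670 RPM in blood and 1300, 1760 and 2140 RPM in spleen, at -0.46 ± 0.12 (adjusted p = 0.199). The groups overlapped, as 3 spleen grafts were above the lowest blood graft. Klf2, which controls trafficking receptors, had 999, 1510 and 1610 RPM in blood and 801, 1040 and 1400 RPM in spleen, at -0.45 ± 0.12 (adjusted p = 0.181 by limma, 0.0319 by voom). Klf4, needed for Ly6C- monocytes, was at -0.48 ± 0.15 (adjusted p = 0.36).

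Receptors for egress and homing passed no test by limma. Of 23 egress and chemotaxis genes 0 were called (3 higher and 1 lower unadjusted, with Klf2 lower by voom), and the median of 0.30 fell to 0.02 with quantile scaling. S1pr5, the receptor by which Ly6C- monocytes leave the marrow, had 242, 366 and 484 RPM in blood and 208, 252 and 579 RPM in spleen, at -0.26 ± 0.17 (adjusted p = 0.661). S1pr1 was at 0 in 4 of 6 blood grafts and reached 32.4 RPM in spleen, at 1.99 ± 1.00 (adjusted p = 0.573). Cxcr4, the marrow retention receptor, was at -0.21 ± 0.29 (adjusted p = 0.86). Of 25 adhesion genes 0 were called (3 higher unadjusted, with Vcam1 higher by voom). Itga4, the integrin that binds Vcam1, had 336 to 719 and 373 to 682 RPM, at 0.08 ± 0.17 (adjusted p = 0.923).

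MHC class II genes, by which cells present antigen to T cells, lay mostly above 0 without a call. Of 19 tested, 17 were above 0 and the median was 0.54, but 0 were called by limma (8 higher and 0 lower unadjusted, with H2-Ob higher by voom). H2-Ab1, a class II chain, had 205, 475 and 1720 RPM in blood and 355, 835 and 1270 RPM in spleen, at 0.76 ± 0.28 (adjusted p = 0.451). It was called without blood 24 h replicate AC, the highest blood library (1.10, adjusted p = 0.0272), but not in the other 11 of the 12 fits without 1 library. H2-Aa had 500, 1050 and 2210 RPM in blood and 1170, 1700 and 2770 RPM in spleen, at 0.74 ± 0.20 (adjusted p = 0.251). Class II genes are also expressed by B cells and dendritic cells, whose marker sums were given above for B cells and were 220 to 424 RPM in blood and 305 to 569 RPM in spleen for conventional dendritic cells. In the marrow monocytes before transfer the dendritic cell list summed to 826 and 702 RPM, above every graft. Its member Naaa alone had 658 and 546 RPM there. The part of B cells and dendritic cells in the class II values was not tested.

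In the other gene groups 0 genes were called by limma. The 25 NF-kappaB inflammatory genes had a median of -0.04 (1 higher and 2 lower unadjusted, 0 by voom), and Il1b, the inflammatory cytokine, had 39, 319 and 505 RPM in blood and 73.2, 277 and 297 RPM in spleen, at -0.21 ± 0.30 (adjusted p = 0.864). The 40 interferon response genes had a median of 0.21 (1 higher unadjusted, 0 by voom). The 63 ribosomal protein genes had a median of 0.25, near that of all genes, with 54 above 0 (12 higher unadjusted, 0 by voom). The 33 cell cycle genes had a median of 0.70, which was 0.22 with quantile scaling (5 higher unadjusted, 0 by voom).

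**Figure D4:**
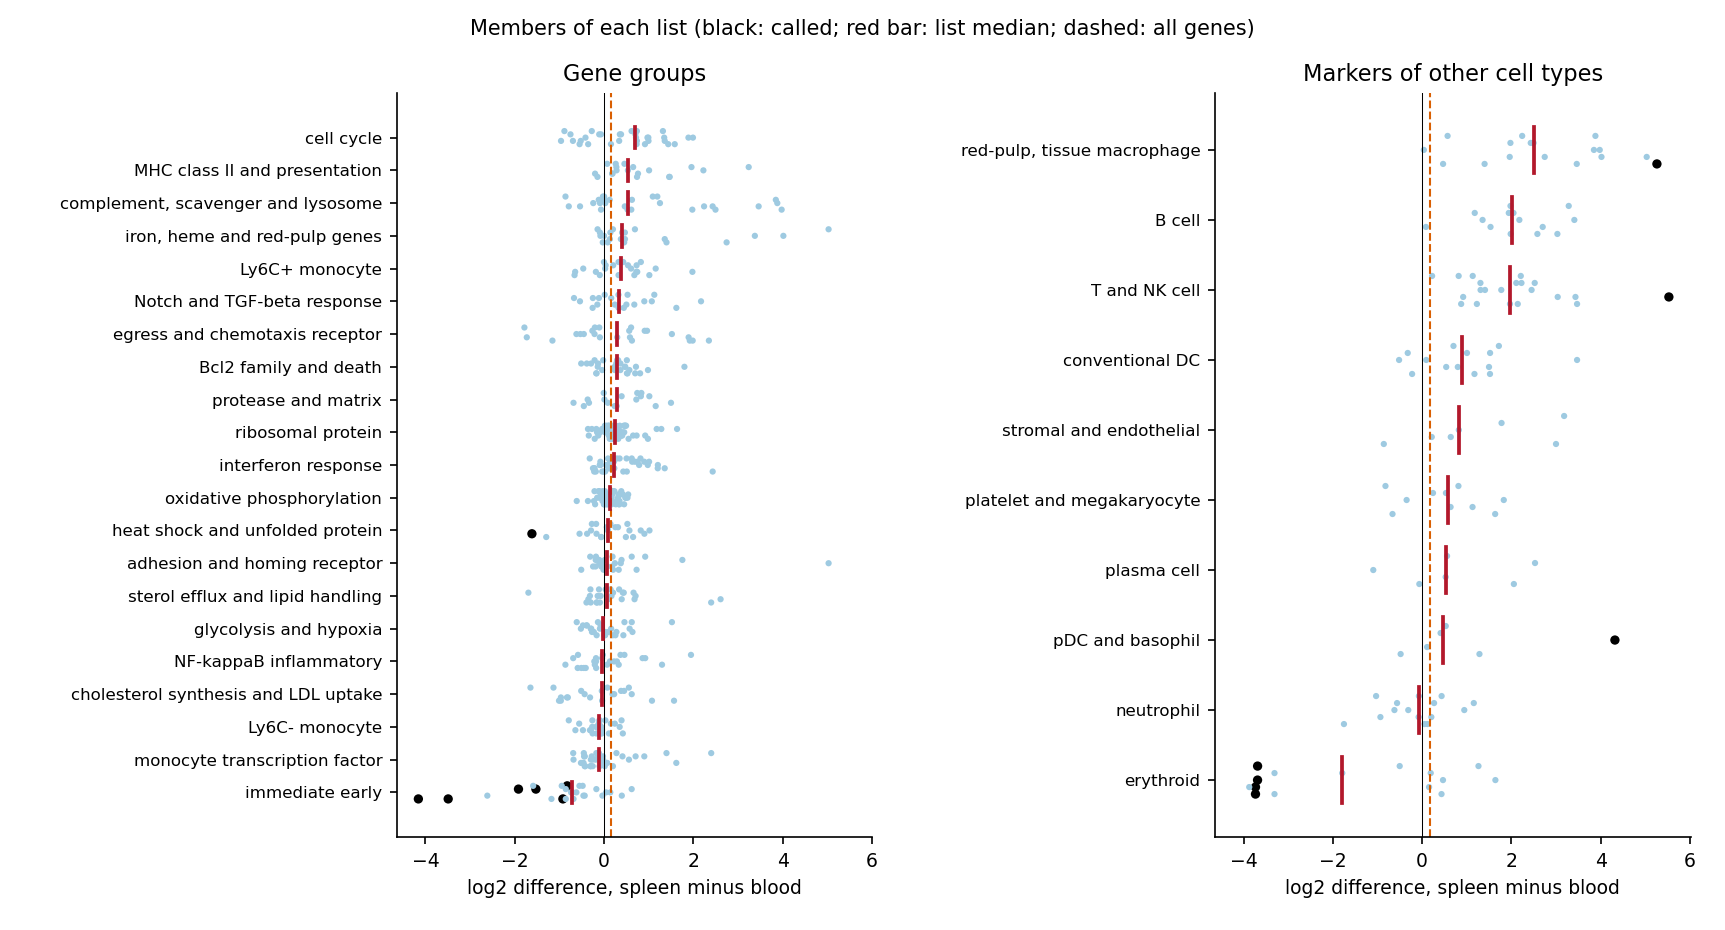
Log2 difference (spleen minus blood grafts, horizontal axis) of each tested member of the gene groups (left) and marker lists (right). Red bars are list medians, black points genes called, and the dashed line the median of all genes. The immediate early list has the lowest median of the gene groups at -0.72, and the macrophage markers have the highest median of all at 2.50.

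Single times were tested as contrasts of 2 libraries against 2, within 1 fit of all 12 graft libraries that shares its spread over the times. In these contrasts 7 genes were called at 24 h (0.064% of 10929), 1 at 36 h (0.00915%) and 1 at 48 h (0.00915%). Fos was called at each. Jun was called at 24 h (-2.84, adjusted p = 0.00451). The other 5 genes at 24 h were all higher in spleen: Bnip3l (3.72, adjusted p = 0.000457), a mitophagy receptor, Plac8 (1.66, adjusted p = 0.00931), Prdx1 (2.25, adjusted p = 0.0383), a peroxide-reducing enzyme, Gzf1 (5.90, adjusted p = 0.0383), a zinc finger protein, and Skint3 (2.70, adjusted p = 0.0383), an immunoglobulin family protein. These counts rest on few libraries. At 24 h they were 86 without blood replicate AC, 60 without blood B, 4 without spleen B and 4 without spleen C. At 36 h they were 0 without any 1 of the 4 libraries, and at 48 h 125 without blood AC, 4 without blood B, 15 without spleen B and 13 without spleen C.

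The 5 genes higher at 24 h had their lowest blood levels in the 2 blood grafts of that time, Plac8 only slightly below the 48 h blood grafts. Bnip3l had 9.64 and 13.6 RPM in blood at 24 h, 125 to 236 RPM in the 4 later blood grafts and 128 to 261 RPM in all spleen grafts. Skint3 had 9.64 and 11 RPM in blood at 24 h and 87.6 to 182 RPM later. Prdx1 had 44.7 and 93.8 RPM at 24 h and 196 to 458 RPM later, and Gzf1 was at 0 in both at 24 h. Plac8 had 1760 and 1560 RPM in blood at 24 h, 4330 and 6090 RPM at 36 h and 1880 and 2290 RPM at 48 h, against 6120 and 4500 RPM in spleen at 24 h. Over all times these genes were not called, with Bnip3l at 1.30 ± 0.43 (adjusted p = 0.385). Whether the tissue difference changed with time was tested itself. The interaction of tissue and time called 0 genes by limma (741 at an unadjusted p under 0.05, 6.78%, and 1 by voom), and the smallest adjusted p was 0.0548, for Bnip3l. Without blood 24 h replicate B it called 7 genes, and without blood 48 h replicate AC or spleen 24 h replicate B 1 each. The difference at 48 h minus that at 24 h called 0 genes (936 unadjusted, 8.56%).

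Most of the genes called in grafts were also called in host monocytes of the same tissues and preparations. In hosts 397 of 11433 genes were called with subset as a block (3.47%), 262 higher in spleen (2.29%) and 135 lower (1.18%). The count was 169 without spleen host Ly6Cint A, 218 and 227 without spleen host Ly6C- B and A, and 250 without blood host Ly6C- B. No library is shared with the graft comparison. Of the 16 genes called in grafts 14 were also called in hosts with the same sign, 12 of the 13 lower and 2 of the 3 higher, and 0 with the opposite sign. That is 87.5% of graft calls and 3.66% of the 383 host calls among the 10608 genes tested in both. Each globin pair enters these counts as 2 genes, though its values are near equal. Of the 16, the 2 that were not called in hosts were Tnfrsf1a (-0.26, adjusted p = 0.265) and Fcna (1.29, adjusted p = 0.218).

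Fos was at -3.24 in hosts (adjusted p = 2.97e-11), with 392 to 1700 RPM in blood and 34.6 to 280 RPM in spleen, and the host groups did not overlap. Dusp1 was at -3.44 (adjusted p = 1.38e-13), with 233 to 614 RPM in blood and 22.8 to 49.5 RPM in spleen, also without overlap. Hspa1b was at -3.25 (adjusted p = 4.39e-06) and Hba-a1 at -4.08 (adjusted p = 4.39e-06). Of the 26 immediate early genes tested in hosts 15 were lower and 0 higher. Cd8b1 was at 2.15 (adjusted p = 0.0131) with at most 14 RPM in spleen hosts, and Ly6d at 3.30 (adjusted p = 0.000178). Across the 10608 genes Pearson's r of the 2 differences was 0.231, as a description of genes that are not independent. Of the 254 genes higher in spleen hosts 218 lay above 0 in grafts, with a median of 0.61, and of the 129 lower 94 lay below 0, with a median of -0.32. Of 18 MHC class II genes tested in hosts 7 were higher, and of 22 Ly6C+ genes 5 were.

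The graft difference was tested against the host difference in 1 fit of 24 libraries. Of 11999 genes 5 were called (0.0417%), 3 higher (0.025%) and 2 lower (0.0167%), all at an adjusted p of 0.0301. C1qc, a complement gene, was higher in spleen grafts than in blood grafts on average (198 against 4.97 RPM) and lower in spleen hosts than in blood hosts (23.3 against 75.4 RPM), a graft minus host difference of 6.02 ± 1.06. In graft libraries it followed C1qa, with 829 RPM in spleen 36 h replicate C and 1.75 RPM in spleen 48 h replicate B. Gng11, a G-protein subunit gene, had means of 17.6 and 3.21 RPM in spleen and blood grafts and 2.7 and 21.8 RPM in hosts, a difference of 5.13 ± 0.89. Bnip3l was at 1.56 ± 0.27, but its tissue difference in grafts was 3.72 at 24 h, 0.05 at 36 h and 0.13 at 48 h. Csf2ra, the alpha chain of the GM-CSF receptor, was at -0.80 ± 0.13. Israa was at -3.16 ± 0.54, with 19.7 to 55.2 RPM in blood grafts and 0 to 21.9 RPM in spleen grafts. Hosts were all of 24 h, whereas the graft difference was a mean over 24, 36 and 48 h. None of the 14 genes called in both comparisons was among the 5, and for Fos the graft minus host difference was -0.92 ± 0.31 (adjusted p = 0.356). The count of 5 moved with single libraries. It was 0 without blood graft 36 h AC, spleen graft 36 h C, blood host Ly6C- A or B, blood host Ly6C+ B or any 1 of the 6 spleen hosts. It was 1 without blood graft 36 h B or blood host Ly6Cint A, and 2 without spleen graft 24 h C. It was 11 without blood host Ly6Cint B or spleen graft 36 h B, 15 without blood host Ly6C+ A and 16 without spleen graft 24 h B. It was 23 without spleen graft 48 h C, 46 without spleen graft 48 h B, 60 without blood graft 24 h B, 74 without blood graft 24 h AC and 91 without blood graft 48 h AC.

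**Figure D5:**
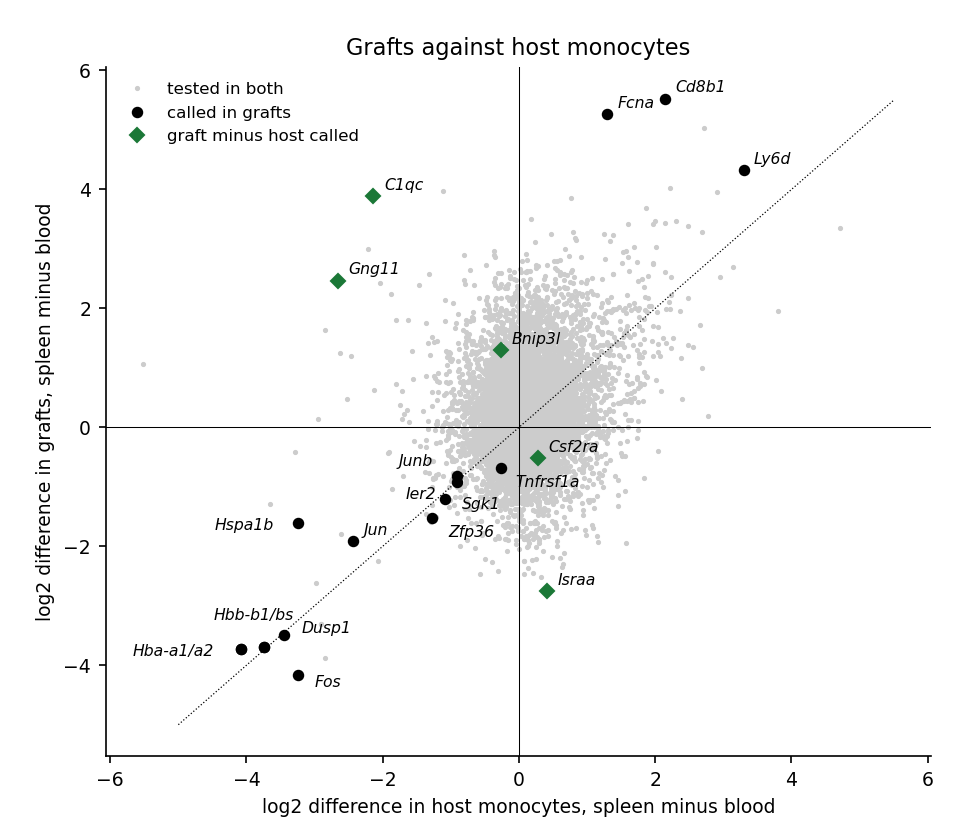
Log2 difference (spleen minus blood) in grafts (vertical axis) against that in host monocytes (horizontal axis) for the 10608 genes tested in both, with the dotted line marking equal differences. Fos, Dusp1, Jun and the globin genes are low in both, and C1qc and Gng11 are above 0 in grafts and below 0 in hosts.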

How the data were processed

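The authors deposited score values for the transfer table: whole numbers per gene, scaled to a common total of 2281423 to 2282712 in each of the 26 columns, per the file itself. Per the submitters' processing notes, bcl2fastq, HISAT 0.1.5, SAMtools and HOMER were used with the genome build mm9; counting options and annotation are not given in the sources used here. In each graft and host column every value is a multiple of 1 step, rounded within 0.5, and reads were recovered by division.

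Values were scaled to RPM over the 24421 listed genes. After adding 1 RPM and taking log2, genes with 2 RPM in at least 2 libraries were tested with the trend method of limma 3.58.1 in R 4.3.3. A gene was called at a p under 0.05 after Benjamini-Hochberg adjustment. A fold on this scale understates the change of low genes. The graft fit held the 12 graft libraries with time as a block, the host fit 12 host libraries with subset as a block, and the contrast of both 24 libraries in group means. The voom test on recovered reads was added after seeing the data. The members and gene lists were chosen with earlier results of these data known, and lists are described by counts and medians, without a test. The tests were tried on simulated data.

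Genes named were those called and separated at each time with at least 20 RPM, up to 4 called members of a list, 19 of the fixed genes, a further one not being reported here, and those called in the graft minus host contrast. Other genes, such as Fosb, Egr1, Klf6, Hspa1a, Alas2, Epor, Tfrc, Cd8a, Cd3e, Slc40a1, H2-Aa, H2-Ob, the genes called at 24 h and those called by voom, were chosen after their values were seen. The alternatives were other pseudocounts, filters, scalings, weights and designs, and leaving out each library or time.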

Additional observations from a re-analysis of the deposited data

Results flagged for a closer look

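In 31 groups of 6 graft libraries, covering the 16 genes called, the gap of the lowest or highest library to its neighbour was taken. It was divided by the whole range, both on log2 of RPM plus 1 and not on RPM itself. In 3 groups this share was above Dixon's 95% critical value. For 6 values drawn alike from a normal distribution, chance gives about 1 such group in 20. These groups pool 3 times, so that rate does not hold for them as it stands. Dusp1 in spleen grafts was lowest in 24 h replicate C (0 RPM, next 34.6 RPM, share 0.705). Fcna in blood grafts was highest in 36 h replicate AC (6.13 RPM, with the other 5 at 0, share 1). With 5 libraries at 0 the share is 1 whatever the level of the other, so this flag was fixed in advance. Jun in blood grafts was highest in 24 h replicate B (617 RPM, next 351 RPM, share 0.727).

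For 5 genes the tissue difference in grafts differed from that in host monocytes by limma, each at an adjusted p of 0.0301. The graft minus host difference was -0.80 for Csf2ra, 1.56 for Bnip3l, -3.16 for Israa, 5.13 for Gng11 and 6.02 for C1qc. In grafts the tissue difference of Bnip3l was 3.72 at 24 h, 0.05 at 36 h and 0.13 at 48 h. For each of the 5, leaving out any 1 of the libraries blood graft 36 h AC, spleen graft 36 h C, blood host Ly6C- A, Ly6C- B or Ly6C+ B, or any of the 6 spleen hosts, ended the call (adjusted p = 0.0634 to 0.128). Other libraries ended some of these calls: blood graft 36 h B those of Bnip3l, Israa, Gng11 and C1qc, spleen graft 24 h C those of Bnip3l, Israa and C1qc, blood host Ly6Cint A those of Csf2ra, Israa, Gng11 and C1qc, and blood host Ly6Cint B that of C1qc (adjusted p = 0.0539 to 0.133).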

How the results depend on the processing

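The graft count of 16 became 468 with all 26 libraries in the fit (354 higher), 43 with array weights (25 higher), 41 by voom and 7 without 36 h; without 1 library it was 12 to 21. At 24, 36 and 48 h alone it was 7, 1 and 1, and at those times 4 to 86, 0 to 0 and 4 to 125 without 1 library. By voom the single times gave 102, 14 and 48 calls. The interaction count of 0 became 1 with the filter of 10 RPM in 3 libraries, with array weights and by voom, and 296 with all 26 libraries, and was 0 to 7 without 1 library. The host count of 397 was 169 to 516 without 1 library. The graft minus host count of 5 became 3 and 11 with pseudocounts of 0.5 and 5 RPM, 16 with 26 libraries, 1 with array weights and 25 by voom, and was 0 to 91 without 1 library. The causes were not tested.

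Signs turned for genes that were not called. Itga4 was at -0.058 with array weights, -0.064 to 0.158 without 1 library (below 0 without spleen 24 h C or, at -0.017, blood 24 h B), -0.233 without 24 h, -0.387 at 36 h and -0.080 at 48 h. Il1b was at -0.557 to 0.039 without 1 library (blood 24 h B and AC), 0.050 without 36 h and 0.213 at 24 h. Cxcr4 was at 0.053 without 24 h and 0.575 at 48 h, and Skint3 at -0.015 without 24 h and -0.385 at 36 h. Hmox1 was at -0.083 without 36 h, -0.002 at 24 h and -0.165 at 48 h. At 24 h Cx3cr1 was at 0.136 and H2-Ab1 at -0.306, at 36 h Ly6c2 at -0.053 and Plac8 at -0.014, and at 48 h Gzf1 at -0.878, S1pr5 at 0.019 and Spic at -0.939. The direction held for all 14 separate calls under each of the 30 alternatives of the graft comparison, and Fos kept its call in all 30. Single times with 1 library left out are not among these 30.

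With the label letter as a replicate block, the tissue difference of the grafts rests on the libraries labelled B. With it 7 genes were called in grafts, 6 of them among the 16 (Fos, Jun and the 4 globin genes). Under this block Cx3cr1 was at 0.015 in grafts, Il1b at 0.501 and Nr4a1 at 0.171. In hosts, where the letters A and B occur in both tissues, the block gave 462 calls. Deviations of libraries sharing the letter B correlated at -0.0241 to 0.0254 over all pairs of groups. Between blood and spleen of the same time they correlated at 0.00834 (24 h), -0.021 (36 h) and 0.00535 (48 h). The letter was not taken to pair samples, but with 2 libraries in a group such values cannot show that they came from different animals.

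At 547942 to 1184760 reads per graft library, genes of a few RPM rest on a few reads.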

Other observations

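Genes called by voom on the recovered reads, but not by limma trend, were mostly higher in spleen grafts. Gimap4 and Gimap6, GTPases of the immune-associated family that lymphocytes express, were at 4.36 ± 0.65 (adjusted p = 0.00104 by voom, 0.0611 by limma) and 4.14 ± 0.79 (0.0153 by voom, 0.181 by limma). Igfbp7 was at 4.94 ± 0.90 (0.0107 and 0.147), Dnase1l3, a secreted nuclease of macrophages and dendritic cells, at 3.71 ± 0.68 (0.0107 and 0.168), Mrc1, the mannose receptor, at 4.30 ± 0.91 (0.0319 and 0.181), and Hebp1, a heme-binding protein, at 3.88 ± 0.80 (0.0257 and 0.214). Csf2ra was lower, at -0.56 ± 0.11 (0.0242 and 0.147), as was Laptm5, a lysosomal membrane protein, at -0.28 ± 0.05 (0.00598 and 0.36). These genes were chosen after their values were seen.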
